A study of Rattus norvegicus with 100 samples.

Results

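The complement and coagulation factors described here are 41 genes listed by function, most of them plasma proteins that the liver makes and secretes. They comprise the lectin and classical pathways of complement, the C3 convertases, the terminal complement proteins, the complement regulators, the vitamin K dependent clotting factors, the contact system, factor V, fibrinogen, the fibrinolytic proteins, the plasma serpins and fetuin-A (Ahsg). Each gene was read from the probe set that carried its symbol alone and had the highest mean over all arrays. Of the 41 genes, 37 had such a probe set, among 13439 genes with one in the whole series. All 37 passed the filter on low values, as did 8843 genes in all. F7, F11, F13b and Kng1, for which no probe set carried that symbol alone, were not analysed here.

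The study exposed primary rat hepatocytes to GW7647, a synthetic agonist of the nuclear receptor PPARα, at 0.001, 0.01, 0.1, 1 or 10 µM or at 0 µM, for 2, 6, 12, 24 or 72 h. The cells of 4 rats (Rs627, Rs628, Rs631 and Rs632) were plated on collagen IV with a Geltrex overlay and kept in William E medium, and 100 arrays, 1 per rat and condition, measured their RNA. At 72 h there were 4 arrays at each of 0, 0.001, 0.01 and 1 µM, and 3 at 0.1 and 10 µM, where Rs627 was missing. At 24 h there were 3 arrays at 0 µM (no Rs628), 4 at 1 µM and 3 at 10 µM (no Rs627). The labels do not state the strain, sex or age of the rats, nor whether the 0 µM cultures received a solvent. All comparisons below are against the 0 µM cultures of the same time unless stated otherwise, so they share those arrays within a time.

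Complement is a cascade of plasma proteases and binding proteins that marks surfaces for uptake and lysis, and coagulation is a parallel cascade that turns prothrombin into thrombin and fibrinogen into fibrin. Hepatocytes are the main source of most of these proteins, and several of them, fibrinogen and C3 among them, belong to the acute phase proteins whose synthesis follows interleukin 6. PPARα is a lipid-activated transcription factor of the liver that drives genes of fatty acid oxidation. The arrays measured RNA, so secretion itself was not observed, and in such bulk samples fewer expressing cells and less RNA per cell cannot be told apart.

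The promoters of 6 factors are shown because they represent the patterns described below: Fga and Fgb, 2 neighbouring fibrinogen genes whose RNAs fell together, Ahsg and C1r, which were among those that fell most, and F2 and Serpinc1, which rose. Each window runs from 250 bases before to 50 bases after the transcription start, in the RefSeq promoter table of the rat (build GRCr8), and reads 5′ to 3′ on the gene's strand. Capitals mark matches, on either strand, to the motifs searched, which are named after each sequence.

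Fga: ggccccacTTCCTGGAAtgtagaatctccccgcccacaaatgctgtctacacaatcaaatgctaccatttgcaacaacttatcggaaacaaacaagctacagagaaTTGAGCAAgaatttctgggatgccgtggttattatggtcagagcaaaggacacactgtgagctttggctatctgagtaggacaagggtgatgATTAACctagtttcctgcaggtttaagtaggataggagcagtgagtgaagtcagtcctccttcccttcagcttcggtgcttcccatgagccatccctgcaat
Fgb: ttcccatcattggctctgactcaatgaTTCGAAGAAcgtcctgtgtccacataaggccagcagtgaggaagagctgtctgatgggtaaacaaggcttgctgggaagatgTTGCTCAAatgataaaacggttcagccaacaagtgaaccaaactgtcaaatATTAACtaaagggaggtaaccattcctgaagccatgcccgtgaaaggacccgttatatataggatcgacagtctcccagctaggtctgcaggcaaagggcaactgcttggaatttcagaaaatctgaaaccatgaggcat
Ahsg: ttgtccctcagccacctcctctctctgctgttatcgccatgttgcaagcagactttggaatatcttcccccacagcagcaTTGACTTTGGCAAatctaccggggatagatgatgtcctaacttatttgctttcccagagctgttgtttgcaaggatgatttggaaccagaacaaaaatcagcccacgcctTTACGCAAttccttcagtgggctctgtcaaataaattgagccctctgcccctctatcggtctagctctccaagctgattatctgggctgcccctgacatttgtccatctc
C1r: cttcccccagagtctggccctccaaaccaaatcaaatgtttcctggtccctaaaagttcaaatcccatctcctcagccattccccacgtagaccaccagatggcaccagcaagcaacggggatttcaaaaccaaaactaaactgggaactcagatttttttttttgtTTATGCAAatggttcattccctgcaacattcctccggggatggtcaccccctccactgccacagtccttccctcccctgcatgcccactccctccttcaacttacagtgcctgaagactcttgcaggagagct
F2: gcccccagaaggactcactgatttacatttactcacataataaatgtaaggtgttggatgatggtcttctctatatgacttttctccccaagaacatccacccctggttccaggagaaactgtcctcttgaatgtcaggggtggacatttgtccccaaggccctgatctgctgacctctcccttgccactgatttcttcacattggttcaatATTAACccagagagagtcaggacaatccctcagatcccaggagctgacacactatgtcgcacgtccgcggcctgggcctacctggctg
Serpinc1: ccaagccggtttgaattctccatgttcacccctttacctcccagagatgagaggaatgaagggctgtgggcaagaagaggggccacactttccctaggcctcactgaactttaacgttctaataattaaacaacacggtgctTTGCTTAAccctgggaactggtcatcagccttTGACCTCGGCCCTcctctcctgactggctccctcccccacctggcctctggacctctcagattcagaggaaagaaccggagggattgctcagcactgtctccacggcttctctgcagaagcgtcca

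The Fga window (chr2:170671919-170672218, plus strand) holds in order a match to the STAT, the C/EBP and the HNF1 motif. The Fgb window (chr2:170700826-170701125, minus strand) holds the same 3 motifs in the same order, at -223, -141 and -90 from the first transcribed base, against -242, -144 and -52 in Fga. A second Fga window (chr2:170671937-170672236), which starts further downstream and is not printed, holds the C/EBP and HNF1 matches but no STAT match. The window of Fgg, the third fibrinogen gene, whose RNA fell as well, is not printed either. It holds a TATA box match and none of the STAT, C/EBP and HNF1 motifs. The Ahsg window (chr11:91632534-91632833, minus strand) holds an HNF4 match that overlaps a C/EBP match, and a further C/EBP match. The C1r window (chr4:159098763-159099062, plus strand) holds a C/EBP match, the F2 window (chr3:98065197-98065496, minus strand) an HNF1 match, and the Serpinc1 window (chr13:75790308-75790607, plus strand) a C/EBP and a DR1 match. DR1, a direct repeat of AGGTCA spaced by 1 base, is the form that PPARα and HNF4 both bind, and it was searched with at most 2 mismatches. The other motifs were GTTAAT for HNF1, TTNNGCAA for C/EBP, TTCNNNGAA for STAT, CAAAGTCCA with at most 1 mismatch for HNF4, and TATAAA for the TATA box.

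The table held 34 windows for 33 of the 41 genes. A C/EBP match was found in 41.2% of these windows, against 10.6% of all 33469 windows, and an HNF1 match in 32.4% against 7.5%. A STAT match was found in 20.6% against 8.9%, an HNF4 match in 11.8% against 8.7%, a DR1 match in 8.8% against 3.8% and a TATA box in 5.9% against 14.2%. These shares describe letters in the windows and are no evidence that a factor binds there.

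In untreated cultures the factors differed more between rats than between times. Over the 17 arrays at 0 µM, the means of the 5 times spanned a median of 0.22 on the log2 scale per gene. The means of the 4 rats, taken without the 12 h arrays, spanned a median of 0.49. The rats were not all present at the same times, and Rs628 then had arrays at 6 and 72 h alone. The range between rats was the wider one for 29 of 37 genes, and over all 37 genes the lowest rat was Rs631 for 23. These shares over all genes are not given here, so the counts are not set against them. C4bpb, the β chain of the C4b-binding protein, spanned 2.30 between rats, from 6.29 in Rs631 to 8.59 in Rs628. Serpind1 (heparin cofactor II) spanned 2.16, from 5.20 in Rs628 to 7.36 in Rs632. C6, Masp1, Mbl1, C9 and Cfb spanned more than 1 as well. At the other end Ahsg spanned 0.053 between rats and 0.15 between times. The rat labels of the 0 µM cultures of Rs627 and Rs628 at 12 h may be exchanged: their deviations from the group means correlated at 0.763 and 0.513 with those of the other rat, and at -0.017 and -0.218 with those of their own.

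**Figure D1:**
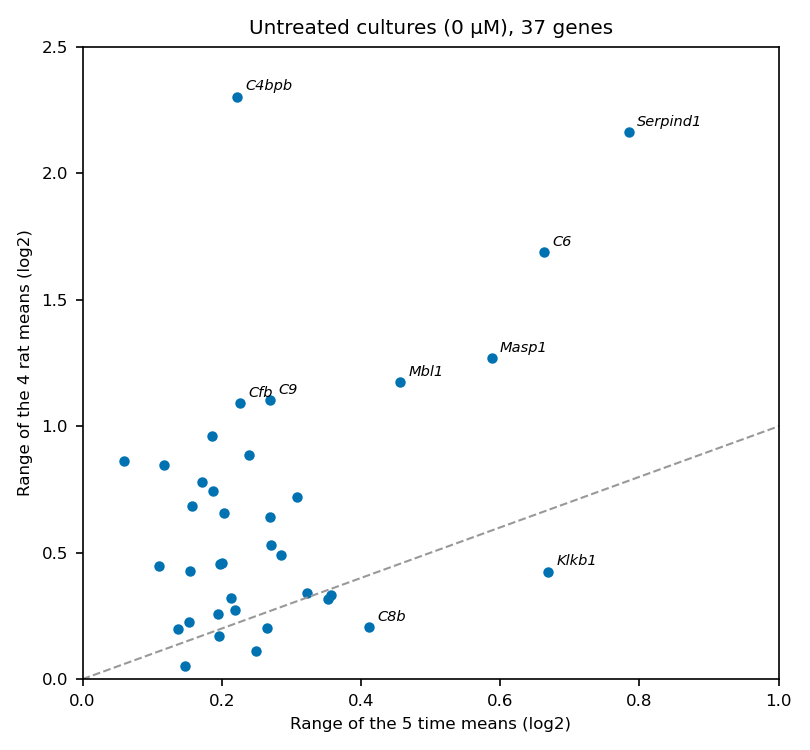
Range of the 4 rat means (vertical axis, log2) against the range of the 5 time means (horizontal axis, log2) of the 37 factors at 0 µM, 1 point per gene, with a dashed line where both are equal. The rat means leave out the 12 h arrays. Of the 37 genes, 29 lie above the line, with C4bpb and Serpind1 highest and Klkb1 and C8b among those below it.

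No change with time passed at 0 µM. None of the 37 passed the test of limma at 6, 12, 24 or 72 h against 2 h, where 1.50%, 1.79%, 1.41% and 3.40% of all genes did. At an unadjusted p under 0.05 there were 0, 1, 0 and 1, and a trend and robust prior gave 0 at 72 h. When the model held the replicate block, a term for the rat, 3 factors were lower at 72 h than at 2 h, beside 1147 of 8843 genes in all: C8b (-0.24, adjusted p = 0.0419), Cpb2 (-0.17, adjusted p = 0.0329) and F12 (-0.26, adjusted p = 0.0150).

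After 72 h of GW7647 more of the factors fell than rose. At 1 µM 16 of 37 fell, 4 rose and 17 did not pass, and at 10 µM 18 fell, 3 rose and 16 did not pass. Of all genes 26.8% passed at 1 µM (11.3% rose and 15.5% fell) and 28.0% at 10 µM (12.5% rose and 15.6% fell). The median change of the 37 factors was -0.38 at 1 µM and -0.59 at 10 µM, against -0.061 and -0.042 over all genes. The 16 that fell at 1 µM were all among the 18 that fell at 10 µM, and F2, F10 and Serpinc1 rose at both. Both comparisons use the same 0 µM arrays. In this fit, without a term for the rat, the share of factors that fell was above that of all genes at each concentration. The share that rose was near or below that of all genes.

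Scaling and the rat term moved these counts. After median centring, which shifted the median change of all genes from -0.061 to 0.11 at 1 µM and from -0.042 to 0.12 at 10 µM, 8 factors fell and 6 rose at 1 µM (27.3% of all genes passed), and 14 fell and 5 rose at 10 µM (30.9%). No factor that passed changed direction under it. Under the replicate block 21 fell and 10 rose at 1 µM (40.3% of all genes), and 22 fell and 9 rose at 10 µM (41.1%). Of the 8843 genes 2123 fell and 1441 rose there at 1 µM, and 2121 fell and 1511 rose at 10 µM. The shares of factors that fell and that rose were then both above those of all genes. Without Rs627 the number that passed at 1 µM dropped from 20 to 11 (17.2% of all genes) and without Rs632 to 12 (18.2%). Without Rs632 it was 12 of 37 at 10 µM (17.1%), in place of 21. Besides the fibrinogen chains, the calls lost at 1 µM when one rat was left out were C2, Cfb, Vtn, F10, Pros1, Serpinf2 and Cpb2, with highest adjusted p of 0.203, 0.202, 0.101, 0.127, 0.194, 0.141 and 0.204. At 10 µM they were C2, Mbl2, C6, F10, Pros1, Serpinf2 and Serpinc1, with 0.0719, 0.237, 0.351, 0.0586, 0.107, 0.0814 and 0.118.

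**Figure D2:**
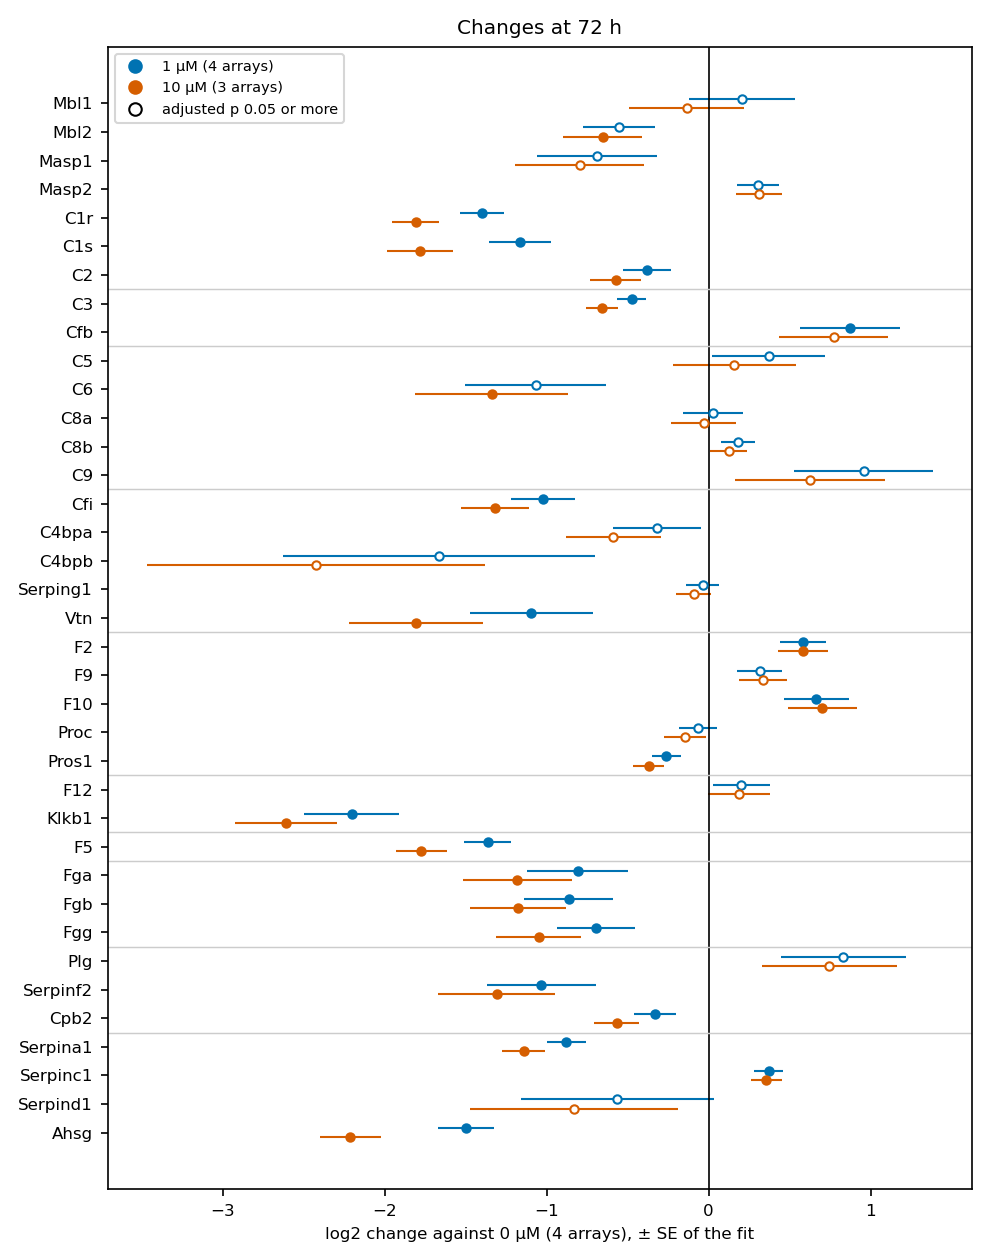
Log2 change at 72 h of the 37 factors, grouped by role, at 1 µM (blue, 4 arrays) and 10 µM (orange, 3 arrays) against 0 µM (4 arrays), with bars of ± 1 standard error of the fit. Filled points passed the test. Klkb1, Ahsg, C1r, C1s, F5 and Vtn lie farthest to the left among the filled points, and F2, F10, Serpinc1 and, at 1 µM, Cfb are filled on the right.

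Of the initiators of the lectin and classical pathways, C1r and C1s, the proteases that together form the active core of the C1 complex, fell most. C1r was 10.41, 10.66, 10.43 and 10.08 (Rs627, Rs628, Rs631 and Rs632) at 0 µM. It was 9.14, 9.06, 9.22 and 8.57 at 1 µM, and 8.79, 8.65 and 8.33 (Rs628, Rs631 and Rs632) at 10 µM. Every treated array lay under every untreated one, and C1r fell 2.64-fold at 1 µM (log2 change -1.40 ± 0.14 SE, adjusted p = 8.51e-14) and 3.50-fold at 10 µM (-1.81 ± 0.15, adjusted p = 4.00e-17). C1s was 11.39, 11.26, 11.10 and 11.12 at 0 µM, 10.51, 10.37, 9.58 and 9.75 at 1 µM, and 10.02, 9.07 and 9.21 at 10 µM. Again the groups did not overlap, with log2 changes of -1.16 ± 0.19 (adjusted p = 1.23e-06) and -1.78 ± 0.21 (adjusted p = 6.45e-11). The 2 genes are next to each other on chromosome 4. Groups without overlap were common at 72 h. They were found for 14 of 37 factors at 1 µM and 21 at 10 µM, beside 28.8% and 36.9% of all genes. For 24 h this share is not given here.

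The other members of these pathways moved less. C2, the protease of the classical C3 convertase, fell by 0.38 on the log2 scale at 1 µM (adjusted p = 0.0444) and by 0.57 at 10 µM (adjusted p = 0.00327). These falls did not pass after median centring. The mannose-binding lectin gene Mbl2 fell by 0.65 at 10 µM (adjusted p = 0.0334), also not after median centring, and its change at 1 µM was -0.55 ± 0.22 (adjusted p = 0.0576). The other lectin, Mbl1, had changes of 0.21 and -0.14, with 2 of 4 and 1 of 3 rats on that side. Masp1 and Masp2, the lectin-associated proteases, had changes of -0.69 and 0.30 at 1 µM and of -0.80 and 0.31 at 10 µM, none past the threshold. Masp1 was called lower with the replicate block (adjusted p = 0.00307 and 0.00256) and Masp2 was called higher (0.0124 and 0.0167).

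The components of the C3 convertases moved in opposite directions. C3, the central protein of the cascade, was 12.06 ± 0.06 (SD, n = 4) at 0 µM, 11.58 ± 0.16 (n = 4) at 1 µM and 11.40 ± 0.08 (n = 3) at 10 µM. It fell by 0.47 at 1 µM (adjusted p = 2.44e-05), a call lost after median centring, and by 0.66 at 10 µM (adjusted p = 9.89e-08). Cfb, the protease of the alternative pathway convertase, was 9.65, 10.37, 9.21 and 9.75 at 0 µM, 10.63, 10.79, 10.23 and 10.83 at 1 µM, and 10.30, 10.38 and 10.87 at 10 µM. Rs628 had the highest untreated value and lay slightly lower at 10 µM than at 0 µM, so the groups overlapped, although in each rat the 1 µM culture was higher. Cfb rose by 0.87 ± 0.31 at 1 µM (adjusted p = 0.0278), and its change at 10 µM was 0.77 ± 0.34 (adjusted p = 0.0763). It passed at 10 µM with the replicate block (adjusted p = 3.94e-07). The genes of C2 and Cfb, which encode the paired proteases of the classical and the alternative convertase, are adjacent on chromosome 20.

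Of the terminal complement genes, which encode the parts of the membrane attack complex, 0 of 5 passed at 1 µM, 2 of them at an unadjusted p under 0.05, and 1 of 5 at 10 µM. Of all genes 26.8% and 28.0% passed. C6 fell by 1.34 ± 0.47 at 10 µM (adjusted p = 0.0247) from an untreated range of 5.93 to 7.52, and 1 of its 3 arrays lay under the floor of 5. Its highest adjusted p without one rat was 0.351. C9, which forms the ring of the pore, had changes of 0.96 ± 0.43 at 1 µM (adjusted p = 0.0887) and 0.62 ± 0.46 at 10 µM (0.345), each with every rat higher. It was called higher at both with the replicate block (adjusted p = 3.08e-06 and 1.61e-04). C5 had changes of 0.37 and 0.16, C8a of 0.029 and -0.031, and C8b of 0.18 and 0.12.

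Among the complement regulators, Cfi and Vtn fell. Cfi, the protease that inactivates C3b and C4b, was 11.57 ± 0.20 (SD, n = 4) at 0 µM, 10.55 ± 0.37 (n = 4) at 1 µM and 10.25 ± 0.48 (n = 3) at 10 µM. It fell by 1.02 ± 0.20 (adjusted p = 2.85e-05) and by 1.32 ± 0.21 (7.02e-07). Vitronectin (Vtn), which binds terminal complexes and plasminogen activator inhibitor, was 11.37, 11.78, 10.89 and 11.68 at 0 µM, 10.78, 10.67, 8.78 and 11.10 at 1 µM, and 9.85, 8.13 and 10.88 at 10 µM. Rs631 was lowest in each group. At 1 µM the culture of Rs632 exceeded the untreated culture of Rs631, so the groups overlapped, and at 10 µM they were apart by less than 0.01. Vtn fell 2.13-fold at 1 µM (-1.09 ± 0.38, adjusted p = 0.0239), a call lost after median centring, and 3.50-fold at 10 µM (-1.81 ± 0.41, adjusted p = 3.54e-04).

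C4bpb did not pass, with fitted changes of -1.66 ± 0.97 at 1 µM and -2.42 ± 1.04 at 10 µM (adjusted p = 0.209 and 0.0725). Its arrays at 10 µM ranged from 3.85 to 6.56, and 1 of 4 at 1 µM and 1 of 3 at 10 µM lay under the floor, so the sizes of these changes are uncertain. C4bpa, the α chain, had changes of -0.32 ± 0.27 and -0.59 ± 0.29. Under the replicate block, which removes the differences between rats, both chains were called lower (adjusted p = 1.92e-05 and 4.93e-07 for C4bpb, 0.00309 and 6.18e-06 for C4bpa). The gene of the C1 inhibitor, Serping1, had changes of -0.036 and -0.092, and 2 of 4 and 1 of 3 rats were lower.

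The vitamin K dependent factors were the role with most rises. Prothrombin (F2) was 11.84, 11.47, 11.41 and 11.99 at 0 µM, 12.34, 12.17, 12.14 and 12.40 at 1 µM, and 12.21, 12.26 and 12.31 at 10 µM. Every treated array lay above every untreated one, and F2 rose 1.50-fold at both 1 µM (0.59 ± 0.14, adjusted p = 9.36e-04) and 10 µM (0.58 ± 0.15, adjusted p = 0.00208). Factor X (F10) was 9.95, 9.70, 10.09 and 10.54 at 0 µM, 10.92, 10.64, 10.42 and 10.97 at 1 µM, and 10.70, 10.56 and 11.06 at 10 µM. Only the untreated culture of Rs632 reached into the treated range at 1 µM. F10 rose by 0.67 ± 0.20 (adjusted p = 0.00791) and 0.70 ± 0.22 (0.00893).

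Factor IX (F9) had changes of 0.31 and 0.34 (adjusted p = 0.0824 and 0.0820), and was called higher with the replicate block (2.97e-05 and 7.59e-06). Of the anticoagulant pair of this group, protein S (Pros1) fell by 0.26 at 1 µM (adjusted p = 0.0202) and 0.37 at 10 µM (0.00167), calls that were lost after median centring. Protein C (Proc) had changes of -0.066 and -0.15. Its second probe set correlated at -0.200 with the one used, over the arrays. Proc had calls in opposite directions, lower at 10 µM with the block (adjusted p = 0.0154) and higher at 1 µM with the mean of its probe sets (0.41, adjusted p = 0.0296).

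Plasma prekallikrein (Klkb1), the contact system protease that releases bradykinin, fell to about the floor. It was 7.28, 7.11, 7.19 and 7.01 at 0 µM, 5.05, 4.69, 5.12 and 4.92 at 1 µM, and 4.33, 5.08 and 4.20 at 10 µM. Every treated array lay near or under the floor of 5, under which values have no order, and the groups were far apart. The log2 changes were -2.20 ± 0.29 (adjusted p = 5.32e-09) and -2.61 ± 0.32 (2.62e-10). With values under 5 set to 5, Klkb1 was at least 4.30-fold lower at 1 µM and at least 4.34-fold lower at 10 µM. Factor XII (F12), which prekallikrein activates and is activated by, had changes of 0.20 and 0.19 (adjusted p = 0.445 and 0.521). F12 was called higher with the replicate block (0.0129 and 0.0126).

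Factor V (F5), the cofactor that speeds prothrombin cleavage, was 10.00, 10.31, 10.04 and 10.08 at 0 µM, 8.66, 9.30, 8.75 and 8.26 at 1 µM, and 8.83, 8.25 and 7.93 at 10 µM. The groups did not overlap, and Rs628 was the highest rat in each. F5 fell 2.57-fold at 1 µM (-1.36 ± 0.15, adjusted p = 4.07e-12) and 3.42-fold at 10 µM (-1.77 ± 0.16, adjusted p = 2.20e-15). F5 and F2, protein partners in the prothrombinase reaction, thus changed in opposite directions in every rat that had both cultures.

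The 3 fibrinogen chains fell together. Fga was 12.00 ± 0.44 (SD, n = 4) at 0 µM, 11.19 ± 0.65 (n = 4) at 1 µM and 10.82 ± 0.70 (n = 3) at 10 µM, and Fgb was 12.24 ± 0.40, 11.38 ± 0.52 and 11.07 ± 0.66. Fgg was 12.61 ± 0.29, 11.92 ± 0.54 and 11.56 ± 0.66. Rs628 had the highest value of each chain at each of these concentrations, so that its 1 µM cultures lay inside the untreated range. Its 10 µM cultures did so for Fga and Fgg and not for Fgb, and every rat was lower when treated. The log2 changes at 1 µM were -0.81 ± 0.31, -0.86 ± 0.28 and -0.69 ± 0.24 for Fga, Fgb and Fgg (adjusted p = 0.0445, 0.0130 and 0.0244), and all 3 calls were lost after median centring. At 10 µM they were -1.18 ± 0.34, -1.18 ± 0.30 and -1.05 ± 0.26 (adjusted p = 0.00457, 0.00137 and 0.00118). The highest adjusted p without one rat was 0.301, 0.146 and 0.232 at 1 µM and 0.154, 0.0861 and 0.0897 at 10 µM. The genes lie next to each other on chromosome 2 in the order Fgg, Fga and Fgb, and the second probe set of Fga correlated at 0.947 with the first over the arrays.

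Of the fibrinolytic proteins, the 2 inhibitors fell. Serpinf2 (α2-antiplasmin) was 8.37 ± 0.25 (SD, n = 4) at 0 µM, 7.34 ± 0.70 (n = 4) at 1 µM and 7.07 ± 0.46 (n = 3) at 10 µM, and fell by 1.03 ± 0.34 (adjusted p = 0.0148) and 1.31 ± 0.36 (0.00355). Cpb2, the carboxypeptidase that trims fibrin and slows its lysis, fell by 0.33 ± 0.13 (adjusted p = 0.0484) and 0.57 ± 0.14 (0.00109), calls lost after median centring. Plasminogen (Plg), the precursor of the fibrin-cleaving protease, had changes of 0.83 ± 0.39 (adjusted p = 0.105) and 0.75 ± 0.42 (0.190), higher in 4 of 4 and 3 of 3 rats. The replicate block gave an adjusted p of 1.66e-07 and 1.09e-06, and Plg was then called higher.

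Of the serpins and fetuin-A, Ahsg and Serpina1 fell and Serpinc1 rose. Ahsg, an inhibitor of mineral deposition in plasma, was 12.72, 12.74, 12.71 and 12.65 at 0 µM, the tightest of the groups. It was 11.30, 11.95, 10.75 and 10.83 at 1 µM, and 11.76, 9.29 and 10.43 at 10 µM, and the spread grew with the change. Ahsg fell 2.83-fold at 1 µM (-1.50 ± 0.18, adjusted p = 9.97e-11) and 4.63-fold at 10 µM (-2.21 ± 0.19, adjusted p = 4.56e-16). The leave-one-rat-out range at 10 µM was -2.83 to -1.61. Serpina1 (α1-antitrypsin) fell by 0.88 ± 0.12 (adjusted p = 1.55e-08) and 1.14 ± 0.13 (4.00e-11).

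Antithrombin (Serpinc1), the main inhibitor of thrombin and factor Xa, was 11.24, 11.16, 11.43 and 11.37 at 0 µM, 11.72, 11.50, 11.77 and 11.69 at 1 µM, and 11.52, 11.60 and 11.85 at 10 µM. Every treated array lay above every untreated one, although the shift was small, with a rise of 0.37 ± 0.09 at 1 µM (adjusted p = 7.13e-04) and 0.36 ± 0.10 at 10 µM (0.00248). Heparin cofactor II (Serpind1) had changes of -0.56 ± 0.60 and -0.83 ± 0.64, far within its spread between rats.

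At 72 h few or no factors passed below 0.1 µM, and more passed from there upward. No factor passed at 0.001 µM, where no gene at all did (0%), or at 0.01 µM, where 0.418% of all genes did. At an unadjusted p under 0.05 there were 0 and 2 factors, and with the replicate block C9 was called higher at 0.01 µM (adjusted p = 0.00583, 2.26% of all genes). At 0.1 µM 6 fell and 2 rose, beside 8.82% of all genes. These were Klkb1 (-1.50 ± 0.32, adjusted p = 5.40e-04), C1r (-0.77 ± 0.15, 1.17e-04), C1s (-0.69 ± 0.21, 0.0220), F5 (-0.60 ± 0.16, 0.00743), Ahsg (-0.56 ± 0.19, 0.0461) and Serpina1 (-0.40 ± 0.13, 0.0407), and the rises of Serpinc1 (0.31 ± 0.10, 0.0254) and C8b (0.37 ± 0.11, 0.0244). The 6 that fell at 0.1 µM were all among the 16 that fell at 1 µM. The change of C8b was smaller at 1 and 10 µM (0.18 and 0.12) than at 0.1 µM. Under the replicate block 15 fell and 10 rose at 0.1 µM (25.3% of all genes).

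From one concentration to the next the direction within a rat was often mixed. C1r, the only factor with every step in one direction in all 4 rats, was lower at each of the 5 steps up in concentration in Rs628, Rs631 and Rs632, and at all 3 steps available for Rs627. F2 was higher at all 5 steps in Rs628 and Rs631 at 4 of 5 in Rs632 and at 2 of 3 in Rs627. F5 was lower at all 5 steps in Rs628 and Rs631, at 4 of 5 in Rs632 and at 1 of 3 in Rs627, and C2 was lower at 2 of 5 steps in Rs631. The slope per 10-fold concentration from 0.001 to 10 µM, which does not use the 0 µM arrays, was below 0 for 20 factors and above 0 for 5 among those that passed, where 37.5% of all genes passed. It was -0.69 ± 0.07 per 10-fold for Klkb1, -0.57 ± 0.04 for Ahsg, -0.49 ± 0.03 for F5, -0.47 ± 0.09 for Vtn and -0.46 ± 0.03 for C1r. The positive slopes were Cfb (0.18 ± 0.07), F10 (0.17 ± 0.05), F2 (0.14 ± 0.03), F9 (0.083 ± 0.033) and Serpinc1 (0.057 ± 0.021). After quantile normalization 22 slopes were negative and 2 positive (41.8% of all genes), and those of Cfb, F9 and Serpinc1 no longer passed.

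**Figure D3:**
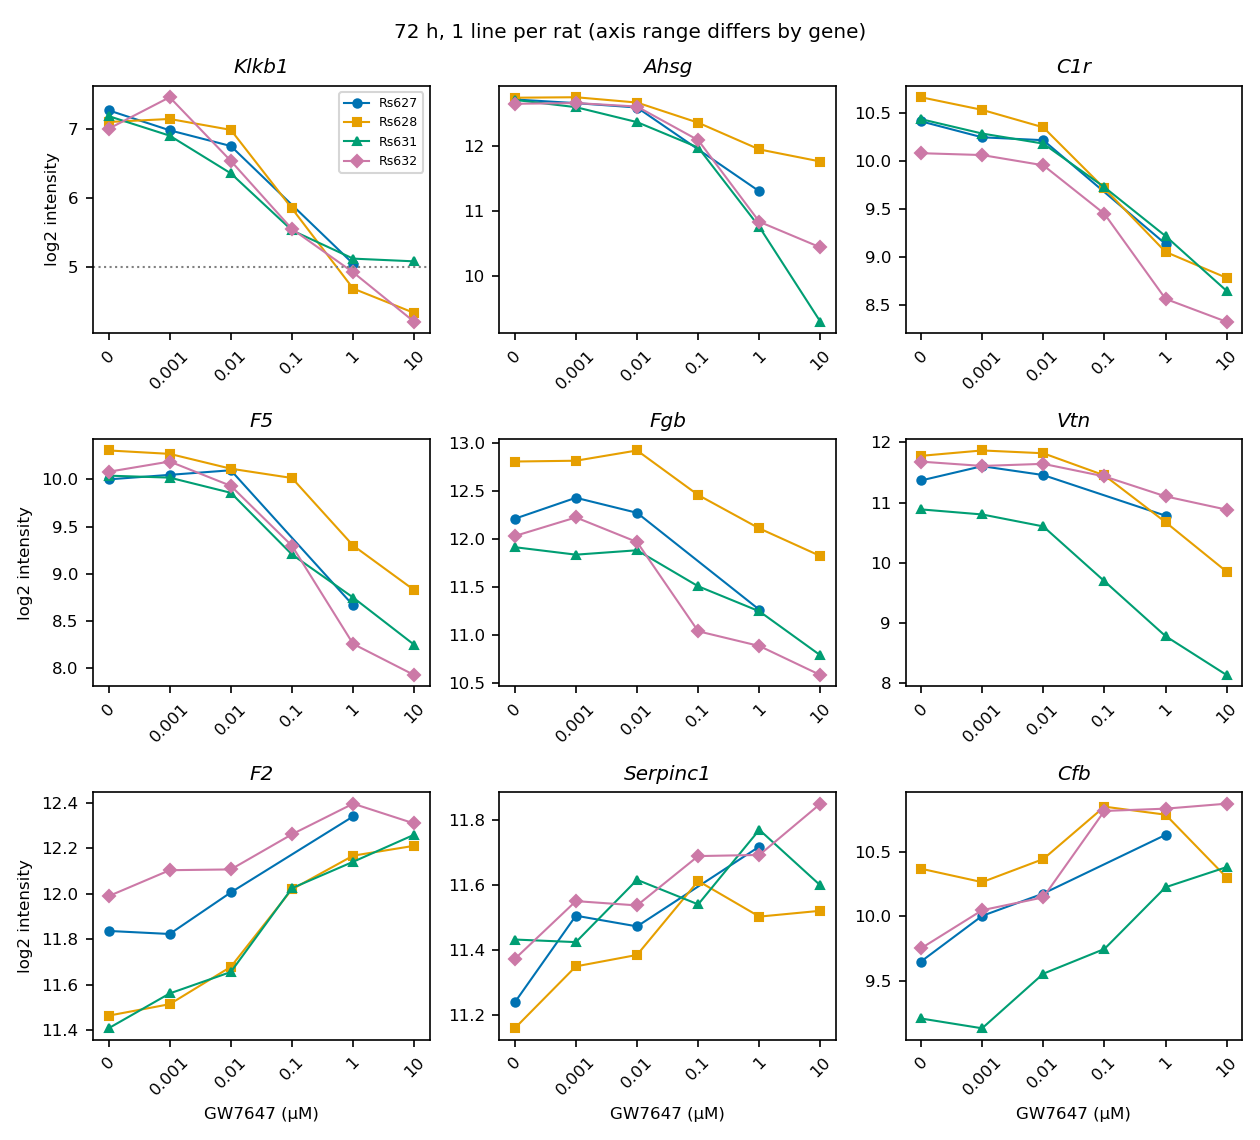
Log2 intensity at 72 h against GW7647 concentration (evenly spaced categories) for 9 factors, 1 line per rat and an axis range of its own for each gene, with a dotted line at the floor of 5 for Klkb1. The lines of Klkb1, Ahsg, C1r, F5, Fgb and Vtn end lower than at 0 µM and those of F2 and Serpinc1 end higher, and Rs627 has no point at 0.1 and 10 µM.

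Between 1 and 10 µM no difference passed. Averaged over the times, 0 of 37 factors and 0% of all genes differed between these concentrations, with 1 factor at an unadjusted p under 0.05 and 0 with a trend and robust prior. At 72 h 34 of 37 factors were lower at 10 µM, where Rs627 was missing, than at 1 µM (32 with the replicate block). The median difference was -0.23 (-0.17 with the block), and the share of all genes that were lower is not given here. The differences there were -0.71 for Ahsg (adjusted p = 0.962) and -0.62 for C1s (adjusted p = 1.00). For C1s the block gave -0.54 (adjusted p = 0.0116). C1s was the only factor called there, and the share of all genes is not given here.

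Fewer factors passed at the early times. At 1 µM no factor passed at 2 h (0.373% of all genes) or at 6 h (2.04%), with 0 and 1 at an unadjusted p under 0.05, and only Klkb1 fell at 12 h (5.41%). At 10 µM no factor passed at 2 h (1.02%) or 6 h (4.30%), with 0 and 4 at an unadjusted p under 0.05, and Klkb1 and C1r fell at 12 h (7.95%). The replicate block gave more calls. At 6 h it called none at 1 µM (4.70% of all genes), and at 10 µM 5 lower (C1r, C6, F5, Proc and Serpinf2) and 1 higher, C5 (14.5%). At 12 h it called 4 lower and 2 higher at 1 µM (11.3%), and 7 lower and 2 higher at 10 µM (16.5%), with C5 and F2 the rises at both. At 12 h Klkb1 was 6.87, 7.47 and 6.84 (Rs627, Rs628 and Rs631) at 0 µM. It was 6.89, 5.11, 6.26 and 4.80 at 1 µM and 5.42, 6.43 and 5.33 (Rs628, Rs631 and Rs632) at 10 µM. The log2 changes were -1.29 ± 0.32 (adjusted p = 0.00402) and -1.33 ± 0.34 (0.00467). In Rs627 the 1 µM value lay at the untreated one, and the groups overlapped. The 12 h calls rest on untreated cultures of which 2 have doubtful rat labels, and the highest adjusted p over the alternatives was 0.421 at 1 µM and 0.304 at 10 µM.

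At 24 h 7 factors fell and 2 rose at 1 µM (29.6% of all genes passed, 7.06% up and 22.6% down), and 6 fell and 1 rose at 10 µM (17.1%, 6.43% up and 10.7% down). At 0.1 µM 1 fell, Klkb1 (-1.09 ± 0.34, adjusted p = 0.0439), beside 4.32% of all genes, and with the replicate block 6 fell and 9 rose there (12.9%). The 9 and 7 of 37 that passed at 1 and 10 µM are shares near those of all genes. All 7 that fell at 1 µM and all 6 that fell at 10 µM also fell at 72 h.

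Klkb1 was 7.26, 7.39 and 7.15 (Rs627, Rs631 and Rs632) at 0 µM and 24 h. It was 5.25, 4.85, 4.27 and 5.09 at 1 µM, and 4.66, 4.52 and 5.57 (Rs628, Rs631 and Rs632) at 10 µM. It was at least 4.54-fold and at least 4.22-fold lower with values under 5 set to 5 (adjusted p = 7.52e-09 and 1.01e-07), and at both times its treated values lay near the floor. C1r was 10.33, 10.45 and 10.26 at 0 µM, 9.62, 9.65, 9.30 and 9.51 at 1 µM, and 9.57, 9.19 and 9.20 at 10 µM. The groups did not overlap, and C1r fell by 0.83 ± 0.15 (adjusted p = 1.03e-05) and 1.03 ± 0.16 (4.40e-07).

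Ahsg was 12.82, 12.74 and 12.78 at 0 µM, 12.23, 12.13, 12.14 and 12.29 at 1 µM, and 12.15, 12.10 and 12.22 at 10 µM. It fell by 0.58 ± 0.19 (adjusted p = 0.0154) and 0.62 ± 0.20 (0.0218), with all treated arrays under the untreated ones. F5 fell by 0.71 ± 0.16 (adjusted p = 3.79e-04) and 0.80 ± 0.17 (2.48e-04), C1s by 0.64 ± 0.21 (0.0145) and 0.91 ± 0.22 (0.00158), and C3 by 0.33 ± 0.10 (0.00842) and 0.47 ± 0.10 (5.11e-04). Serpina1 fell by 0.43 ± 0.13 at 1 µM (0.00980). Serpinc1 rose by 0.24 ± 0.10 at 1 µM (0.0472) and 0.28 ± 0.10 at 10 µM (0.0453), and F2 by 0.42 ± 0.15 at 1 µM (0.0317).

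The fibrinogen chains did not pass at 24 h without the rat term, with changes of -0.050, -0.046 and -0.068 for Fga, Fgb and Fgg at 1 µM (adjusted p = 0.919, 0.917 and 0.855), and Vtn had -0.10 (0.859). The 0 µM group lacked Rs628, the rat with the highest untreated fibrinogen, and the treated groups held it. With the replicate block no chain passed at 1 µM, and Fgg was called lower at 10 µM. The 24 h slope over concentration was then called negative for Fga, Fgb and Fgg. C5 had changes of 0.94 ± 0.38 at 1 µM (adjusted p = 0.0530) and 0.96 ± 0.41 at 10 µM (0.0941) at 24 h. Under the replicate block 12 factors fell and 9 rose at 1 µM (49.8% of all genes) and 11 fell and 9 rose at 10 µM (34.2%), C5 among the rises (3.24e-06 and 1.05e-06).

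The 24 h calls at 1 µM depended on the scaling and on the weak arrays. The 75th percentile of an array, a measure of its overall signal, averaged 6.69 ± 0.26 (SD, n = 4) at 1 µM, 6.85 ± 0.36 (n = 3) at 10 µM and 6.99 ± 0.11 (n = 3) at 0 µM. After median centring, which moved the all-gene median at 1 µM from -0.23 to 0.13, 2 factors fell, Klkb1 and C1r, and 7 rose (23.3% of all genes). The arrays of low signal at 24 h were those of Rs631 and Rs632 at 1 µM and of Rs631 at 10 µM. Leaving them out kept only Rs627 and Rs628 at 1 µM, against a 0 µM group without Rs628. Without the 5 arrays of low signal 4 fell and 1 rose at 1 µM (14.6% of all genes), a share near that of all genes. The rise was C5, and the rises of F2 and Serpinc1 and the falls of Ahsg, C1s and C3 no longer passed. The calls that held whichever rat was left out were Klkb1, C1r and F5 at 1 µM and Klkb1 and C1r at 10 µM. After quantile normalization 6 fell and none rose at 10 µM (20.9%). The rise of Serpinc1 at 10 µM was lost there and after median centring. At 1 µM quantile normalization lost the rises of F2 and Serpinc1 and added that of Masp2.

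How far the change at 72 h exceeded that at 6 h was tested directly. At 1 µM it was below 0 for 7 factors and above 0 for none (5.35% of all genes passed), and at 10 µM below 0 for 8 and above 0 for none (9.61%). At 10 µM the differences were -2.13 ± 0.27 for Ahsg (adjusted p = 1.29e-08), -1.88 ± 0.45 for Klkb1 (0.00235), -1.58 ± 0.29 for C1s (6.51e-05), -1.49 ± 0.21 for C1r (1.70e-07) and -1.38 ± 0.22 for F5 (5.56e-06). With the replicate block 15 were lower and 8 higher at 1 µM (16.1%), and 17 lower and 10 higher at 10 µM (24.0%).

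Between 24 and 72 h the difference passed for 0 factors at 1 µM (0.0226% of all genes; 6 factors at an unadjusted p under 0.05) and for 1 at 10 µM (0.0679%). That was Ahsg, whose change at 10 µM was larger by 1.59 on the log2 scale at 72 h than at 24 h (-1.59 ± 0.28, adjusted p = 9.13e-04). With the replicate block 4 were lower at 1 µM (C1r, Cfi, Fgg and Serpina1; 0.384% of all genes) and 12 at 10 µM (0.735%).

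**Figure D4:**
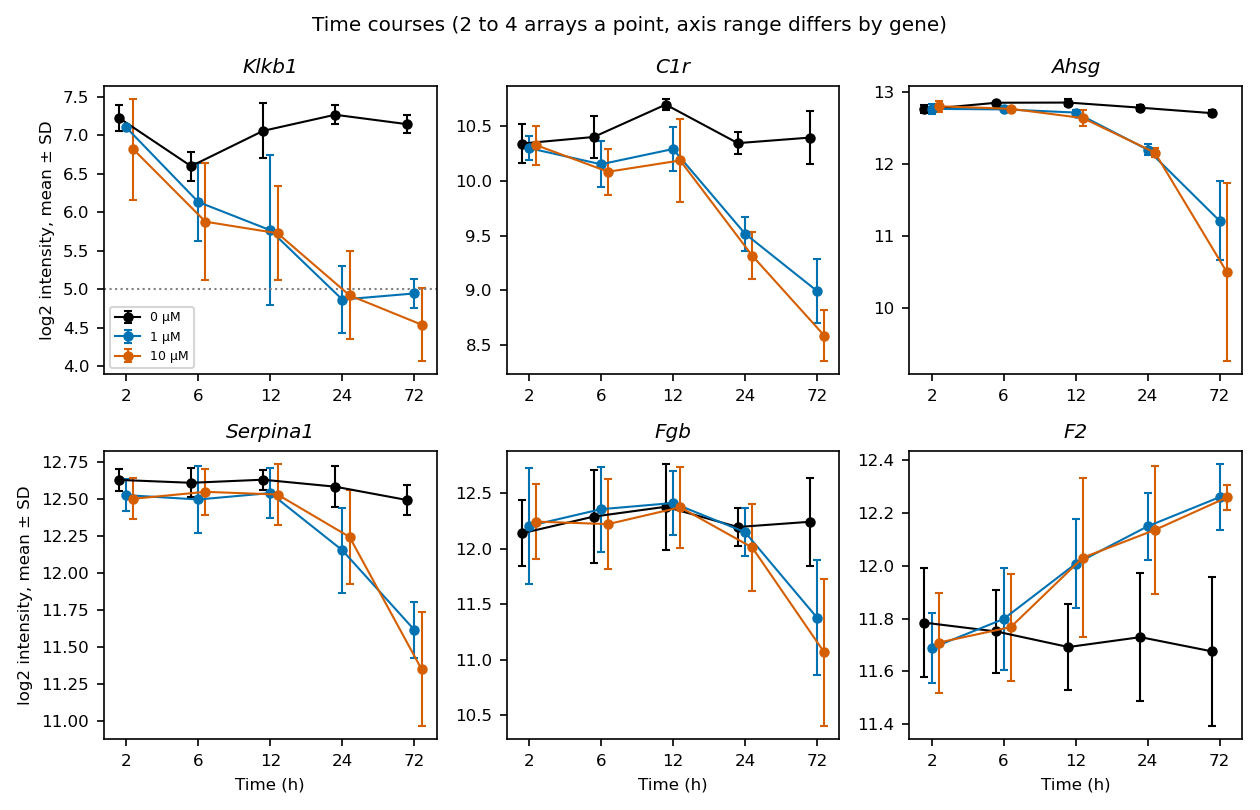
Mean log2 intensity ± SD of 6 factors against time (evenly spaced categories) at 0 µM (black), 1 µM (blue) and 10 µM (orange), 2 to 4 arrays a point, with an axis range of its own for each gene and a dotted line at the floor of 5 for Klkb1. Klkb1 leaves the untreated line first and is near the floor by 24 h, C1r, Ahsg and Serpina1 are lower at 24 and 72 h, Fgb is lower at 72 h, and F2 lies above the untreated line from 12 h.

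Averaged over the 5 times, 11 factors were lower and 6 higher at 1 µM (35.4% of all genes), and 16 lower and 5 higher at 10 µM (39.4%). Klkb1 averaged -1.30 ± 0.14 at 1 µM (adjusted p = 2.45e-12) and -1.48 ± 0.15 at 10 µM (6.15e-14). C5, Masp2 and Serpind1 passed here and, without the block, at no single time. C5 rose by 0.49 ± 0.17 at 1 µM (adjusted p = 0.0169) and 0.52 ± 0.17 at 10 µM (0.0132) and Masp2 by 0.18 ± 0.06 (0.0165) and 0.16 ± 0.07 (0.0431). Serpind1 had averages of -0.72 ± 0.28 (0.0409) and -0.77 ± 0.30 (0.0321). After median centring 5 were lower and 7 higher at 1 µM (32.5%), and 7 and 7 at 10 µM (36.7%). With the replicate block 22 were lower and 9 higher at 1 µM (50.0%). The slope over concentration averaged over the times was below 0 for 17 factors and above 0 for 5 (43.7%), and for 12 and 6 after median centring (40.4%).

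Other genes of the same cascades, from a separate list of 54 of which 20 were tested, were described in the same way. At 72 h 6 fell and 2 rose at 1 µM, and 7 fell and 2 rose at 10 µM, where 26.8% and 28.0% of all genes passed. The rises were Serpine2 (protease nexin 1, a thrombin inhibitor of cell surfaces) and the membrane regulator Cd46. Serpine2 was 4.84, 4.22, 4.22 and 4.13 at 0 µM, under the floor, and 9.34, 9.09, 9.10 and 9.49 at 1 µM, at least 19.1-fold higher (adjusted p = 3.85e-15). Cd46 rose by 1.43 ± 0.21 (5.57e-08). Falls at 1 µM included Anxa2, a cell-surface docking protein for plasminogen (-0.84 ± 0.13, adjusted p = 3.61e-07), and Serpina10, an inhibitor of factor Xa (-0.72 ± 0.12, 9.18e-07). Tissue factor (F3) did not pass (-1.94 ± 0.85, 0.0803), nor did Apoh, F8 or Clu.

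Of the 6 genes that carboxylate or carry clotting factors, Vkorc1, which recycles vitamin K, fell by 0.48 ± 0.12 at 1 µM (adjusted p = 6.89e-04) and its relative Vkorc1l1 rose by 0.38 ± 0.11 (0.00697). The carboxylase Ggcx and the cargo receptor genes Lman1 and Mcfd2 did not pass at either concentration. Of 12 tested liver transcription factors, 4 rose and 3 fell at both concentrations, beside 26.8% and 28.0% of all genes that passed. Onecut1 fell by 1.68 ± 0.31 at 1 µM (adjusted p = 1.51e-05) and Foxa2 by 0.55 ± 0.11 (3.69e-05), and Cebpb rose by 0.95 ± 0.15 (3.38e-07) and Cebpg by 0.37 ± 0.07 (3.24e-05). Hnf4a and Cebpa had changes of 0.22 and 0.14 (adjusted p = 0.472 and 0.637).

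Of 21 tested genes of interleukin 6 signalling and the acute phase, 8 fell and none rose at either concentration, where 15.5% and 15.6% of all genes fell. Jak1 fell by 0.35 ± 0.06 at 1 µM (adjusted p = 1.51e-05), Stat3 by 0.60 ± 0.13 (2.53e-04) and the plasma proteins Itih3 by 0.31 ± 0.05 (1.20e-06) and Hpx by 0.40 ± 0.07 (4.74e-06). Haptoglobin (Hp, 0.05 ± 0.04, adjusted p = 0.379), Crp and Orm1 did not pass. Of 26 other plasma proteins 7 fell and 5 rose at 1 µM, and 12 fell and 4 rose at 10 µM, against the same shares of all genes. Albumin (Alb) did not pass at either (0.05 ± 0.03 at 1 µM, adjusted p = 0.308). Transthyretin (Ttr) fell by 0.28 ± 0.04 (3.12e-07) and Serpina7, the thyroxine-binding globulin, rose by 1.89 ± 0.31 (1.55e-06). All 14 tested PPARα targets rose at both, beside 11.3% and 12.5% of all genes, Ehhadh by 4.82 ± 0.24 at 1 µM.

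Hepatocyte markers were high throughout: at 72 h the sum of 11 of them was 15.30 to 15.45 on the log2 scale at 0 µM, 15.26 to 15.47 at 1 µM and 15.27 to 15.48 at 10 µM, with Cyp2e1 at or under the floor at 0 µM. Markers of other cells moved with the treatment in part. The summed macrophage markers were 8.72 to 9.68 at 0 µM, 7.51 to 8.74 at 1 µM and 7.41 to 8.44 at 10 µM, with 8 of 10 at or under the floor in all 3 groups (Cd163, Csf1r, Clec4f, C1qa, C1qb, C1qc, Cd5l and Ptprc). The summed stellate cell markers were 8.48 to 11.46, 8.19 to 8.85 and 8.53 to 8.73, with 6 of 11 at or under the floor, and those of bile ducts 9.87 to 11.36, 9.70 to 10.36 and 9.50 to 10.34. All 7 endothelial markers were at or under the floor, as were all 4 of lymphocytes and neutrophils. The 3′ to 5′ difference of the β-actin control probes, which grows as RNA degrades, was 1.66 ± 0.18 (SD, n = 4) at 0 µM, 1.97 ± 0.15 (n = 4) at 1 µM and 1.90 ± 0.13 (n = 3) at 10 µM, and that of GAPDH 0.35, 0.34 and 0.36. The part of these cells and of RNA quality in the changes of the factors was not tested.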

How the data were processed

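Total RNA was labelled with biotin and hybridised to Affymetrix rat arrays, per the labels' protocols. The authors deposited 1 log2 intensity for each probe set and array. The submitters' processing notes list GCRMA and Partek with no version, and their role is not given in the sources used here. Array medians ranged from 4.13 to 4.46, and the values were used as deposited. Of 31139 probe sets, 19069 carried 1 gene symbol (61.2%), 572 several and 11498 none. Per gene the probe set with the highest mean was taken, and 8843 of 13439 genes above a log2 value of 5, the floor, in at least 3 arrays were tested.

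One model with 30 group means (70 residual degrees of freedom) was fitted with limma 3.58.1 in R 4.3.3, with moderated variances and two-sided p-values adjusted by Benjamini-Hochberg over all genes tested, at 0.05. "Rose" and "fell" refer to this test. Fold changes are powers of 2 of the log2 change, levels of different genes are not compared, and the number of arrays limits the precision. The fit was tested on simulated data. The 75th percentile of an array ranged from 6.42 to 7.27 and lay under 6.6 in 5 arrays.

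The labels tie each array to a rat. Deviations from the group means correlated at a median of 0.62 within a rat and -0.23 between rats, and 95 of 100 arrays were nearest to their own rat, so the rat pairs the samples and serves as the replicate block among the alternatives (67 residual degrees of freedom). The main fit was planned without the rat, since the labels' protocols state no model. It therefore ignores this pairing, and a factor that did not pass there may still differ within rats. The other alternatives were quantile normalization, median centring, a filter at log2 7 or none, and the mean of a gene's probe sets. The compared times alone and a trend with a robust prior were also used. Further fits left out each rat, the 5 arrays of low signal, the 12 h untreated arrays of Rs627 and Rs628, or 23 arrays with repeated positions. The last are arrays whose titles share a code with another array, and the titles do not say that the code is a position. They include the 5 arrays of low signal. The block without the arrays of low signal, and the comparison of 72 with 24 h, were added after seeing the data. Arrays in full were printed for up to 6 rises and 6 falls per comparison, by size, and up to 4 genes of each other list by p, besides genes that did not pass. The factors and gene lists were chosen with earlier results of these data known.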

Additional observations from a re-analysis of the deposited data

Results flagged for a closer look

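Plg in Rs631 at 1 µM and 72 h had a log2 value of 9.98, far from the nearest of the other 3 rats at 10.86. Its gap was 0.839 of the range of the group, above the limit of 0.829 for 4 samples. Of 46 groups of 4 examined this way, 1 stood out, where chance gives about 1 in 20. Rs631 also had the lowest mean of Plg in the untreated cultures, 9.36 against 9.95 to 10.21 in the other rats.

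The change at 72 h differed from that at 6 h at 1 µM by -1.15 for C1r, -0.96 for C1s, -0.87 for Cfi, -1.74 for Klkb1, -1.07 for F5, -0.76 for Serpina1 and -1.41 for Ahsg. At 10 µM it differed by -1.49 for C1r, -1.58 for C1s, -0.47 for C3, -1.12 for Cfi, -1.88 for Klkb1, -1.38 for F5, -1.08 for Serpina1 and -2.13 for Ahsg. Each passed the test of the difference itself.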

How the results depend on the processing

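At 72 h, 9 of the 20 factors that passed at 1 µM passed under all 15 alternatives (Ahsg, C1r, C1s, Cfi, F2, F5, Klkb1, Serpina1 and Serpinc1), and 10 of 21 at 10 µM (Ahsg, C1r, C1s, C3, Cfi, F2, F5, Klkb1, Serpina1 and Vtn). Of their values under the alternatives, 43 of 300 and 24 of 315 missed the threshold, and 0 changed direction. The share of all genes that passed under every alternative is not given here.

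The number of factors that passed was 9 at 1 µM and 24 h and became 21 with the replicate block, 5 without the arrays of low signal, 5 without repeated positions, 18 with the block and without the arrays of low signal, and 6 to 12 without one rat. The share of all genes moved as well, from 29.6% to 49.8% with the block and to 14.6% without the arrays of low signal. At 1 µM and 72 h the number of factors was 20. It became 31 and 32 with the block, without and with the exclusion of the arrays of low signal, and 11 to 21 without one rat. Of all genes 26.8% passed there, 40.3% with the block, 17.2% without Rs627 and 18.2% without Rs632. At 10 µM and 24 h the number of factors was 7. It became 20, 11, 11, 21 and, without one rat, 2 (without Rs632) to 9, in the order given for 1 µM and 24 h. Of all genes 17.1% passed there and 34.2% with the block. At 10 µM and 72 h 21 factors passed, and 12 to 24 without one rat, beside 28.0% of all genes and 17.1% without Rs632. The averages over the times had 17 at 1 µM (31 with the block in both forms, and 11 to 17 without one rat, lowest without Rs632) and 21 at 10 µM (13 to 21, lowest without Rs627). Of all genes 35.4% passed at 1 µM, 50.0% with the block, and 39.4% at 10 µM. At 0 µM 72 h against 2 h had 0 factors, and 3 and 4 with the block, beside 3.40% of all genes, and 1147 of 8843 genes with the block. The change at 72 h minus that at 6 h had 8 factors at 10 µM (27 and 27 with the block, 6 to 12 without one rat) and 7 at 1 µM (23 and 26, and 6 to 9). Of all genes 9.61% passed at 10 µM and 24.0% with the block, and 5.35% and 16.1% at 1 µM. The slope at 72 h had 18 to 26 factors and the averaged slope 16 to 24 without one rat. With all rats 37.5% and 43.7% of all genes passed. For the other settings the share of all genes is not given here, so those counts are not set against it.

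Factors that did not pass as reported changed sign at 72 h in places. At 1 µM these were C8a (-0.071 without repeated positions, -0.072 to 0.11 without one rat), Serping1 (0.13 with median centring, 0.052 without repeated positions, -0.10 to 0.097 without one rat) and Proc (0.10 with median centring, 0.41 with the mean of its probe sets, a rise with adjusted p = 0.0296). At 10 µM they were Mbl1 (0.030 with median centring, -0.38 to 0.14 without one rat), C5 (-0.0097 to 0.32 without one rat), C8a (0.015 with the replicate block and also with the block without the arrays of low signal, 0.13 with median centring, 0.010 without repeated positions, -0.12 to 0.048 without one rat), Serping1 (0.074 with median centring, -0.24 to 0.22 without one rat) and Proc (0.020 with median centring, 0.30 with the mean of its probe sets). Where the block, the scaling or a left-out array moved a value, the cause was not tested.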
